A study of Mus musculus with 4 samples.

Results

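The 10 genes described here mark the lineages that neural stem cells can enter. Sparcl1, Fgfr3 and S100b are read as astrocyte genes, Pdgfra, Mbp and Olig2 as genes of the oligodendrocyte lineage, Nefl, Map2 and Ncam1 as neuronal genes, and Sox9 as a stem cell and glial transcription factor. They were chosen by gene symbol from the authors' deposited sheet of changed probes. Each had 1 probe there, so 10 of the 9800 probes in the sheet, and of 26423 probes on the array, are described. The sheet names only probes that the authors called changed on these same arrays, and its smallest log2 ratio in size was 1.00. The 10 genes therefore differ between the groups by the way the sheet was made, and unnamed probes of the array were not analysed here for these genes.

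The cells were C17.2, immortalised progenitors from mouse cerebellum that can form neurons and glia. One group received 7.38 mM AAPH, a water-soluble compound that decays into peroxyl radicals, together with 1.69 µM berberine, a plant alkaloid, for 12 h (2 arrays). The other received 7.38 mM AAPH alone for 12 h (2 arrays). No group analysed here was free of AAPH or received berberine without it, so both groups were exposed to radicals and neither stands for undamaged cells. Labelled RNA was hybridised to single-colour arrays. Nothing in the labels says whether the arrays of a group came from separate cultures, so p-values measure only the spread between arrays, which may be technical. The whole culture was sampled, and fewer cells of a type cannot be told apart from less RNA per cell.

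Neural stem cells give rise to neurons, astrocytes and oligodendrocytes, and each lineage is followed by the genes it switches on. Transcription factors such as Olig2 and Sox9 act early and specify fate, growth factor receptors such as Pdgfra and Fgfr3 define the dividing glial precursors, and structural genes such as Mbp, Nefl and Map2 appear as cells mature. None of these genes belongs to a single cell type. Sox9 is also a stem cell gene, Pdgfra is also found in fibroblasts, and Ncam1 is carried by neurons, glia and progenitors.

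With berberine, 7 of the 10 probes were higher and 3 were lower than with AAPH alone. The astrocyte and oligodendrocyte genes other than Sox9 were all among the 7, as was the neurofilament gene Nefl. The rises were moderate, from log2 1.35 for Olig2 to 2.82 for Pdgfra, while Map2 fell by 3.79 and Ncam1 and Sox9 dropped to background. All 10 probes passed an adjusted p of 0.05 in limma after quantile normalization, a threshold that 62.7% of all probes on the array passed, 40.2% as higher and 22.5% as lower with berberine. Of the single-symbol probes in the authors' sheet 99.7% passed, 54% as higher and 45.7% as lower, so the pass of the 10 probes follows from the sheet. On none of the 10 probes did the arrays of the groups overlap, a state shared by 81.7% of all probes and, rounded, by 100% of the single-symbol sheet probes (9188 of 9190).

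On the values as deposited, without further normalization, 6 of the 10 passed: Sparcl1, Pdgfra and Nefl as higher and Sox9, Map2 and Ncam1 as lower with berberine. Of all probes 33.2% passed on that scale, 13.4% as higher and 19.8% as lower. Of the single-symbol sheet probes 75.1% passed, 30.2% as higher and 44.9% as lower. The groups overlapped for none of the 10 on that scale either, where 66.9% of all probes and 96.5% of the single-symbol sheet probes were free of overlap.

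**Figure D1:**
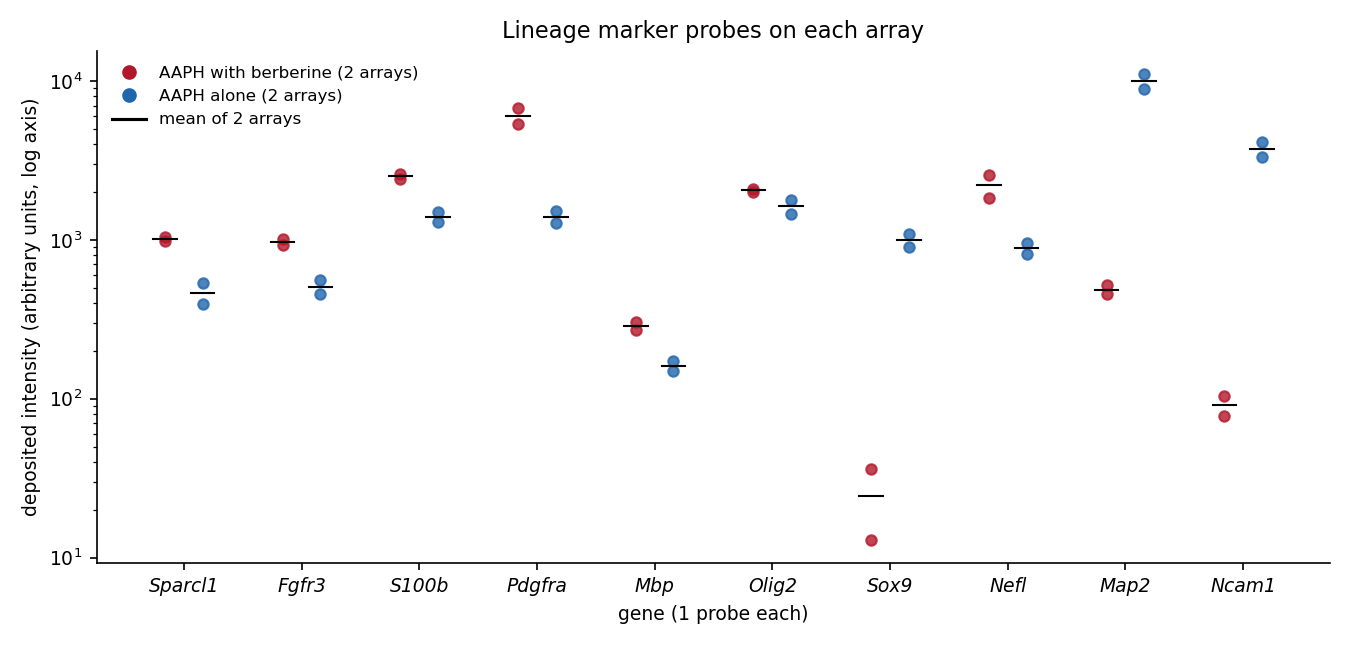
Deposited intensity on a log axis (arbitrary units) of the 1 probe of each of the 10 genes, with AAPH with berberine (2 arrays, red, left) beside AAPH alone (2 arrays, blue, right) and the mean of each pair as a bar. For 7 genes both berberine arrays lie above both AAPH arrays, most closely for Olig2 (2103 and 2007 against 1788 and 1461), and for Sox9, Map2 and Ncam1 they lie below.

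The scale of the arrays differed between the groups. The median deposited intensity over all probes was 189 and 206 on the berberine arrays, against 333 and 273 on the arrays with AAPH alone, while the 99th percentile ran the other way (96496 and 83026 against 66711 and 54628). Fold changes of moderately bright probes therefore depend on how arrays are scaled. The median log2 fold change of all probes was 0.39 after quantile normalization, 0.13 on the values as deposited, 0.74 after centring the arrays on their medians and 1.18 after centring on their 75th percentiles. These medians were not subtracted from the changes given below. Log2 fold changes are berberine minus AAPH alone with the standard error of the limma fit, and adjusted p-values are from limma over all 26423 probes. Slide and scan are unknown here, and handling shared by the arrays of a group cannot be told apart from berberine.

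Upstream sequence was at hand for 5 of the 10 genes, in RefSeq promoter windows of the mouse assembly GRCm38.p6. It is shown for 4 of them as the bases directly before the annotated start of the gene. Of these, the glial genes Fgfr3, S100b and Olig2 rose after quantile normalization and Map2 fell. The rises of Fgfr3, S100b and Olig2 did not pass on the values as deposited. The window of Pdgfra and another window of Fgfr3 lie inside the annotated genes and are not shown. Such windows were not left out of the shares over all promoter windows given below. Capitals mark matches on either strand to an E-box (CANNTG, the class of site bound by basic helix-loop-helix proteins such as Olig2), or a core of the SOX site (ACAAT). They also mark a CCAAT box, spelled as its name, and a TATA box, searched as TATAAA. All 4 stretches lie on the plus strand and are written 5′ to 3′.
Fgfr3, chr5:33721474-33721723: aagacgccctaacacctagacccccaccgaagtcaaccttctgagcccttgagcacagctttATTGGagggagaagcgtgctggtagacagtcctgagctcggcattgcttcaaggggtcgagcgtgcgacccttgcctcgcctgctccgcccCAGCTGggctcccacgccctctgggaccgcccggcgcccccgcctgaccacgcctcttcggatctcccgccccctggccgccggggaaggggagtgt
S100b, chr10:76253586-76253835: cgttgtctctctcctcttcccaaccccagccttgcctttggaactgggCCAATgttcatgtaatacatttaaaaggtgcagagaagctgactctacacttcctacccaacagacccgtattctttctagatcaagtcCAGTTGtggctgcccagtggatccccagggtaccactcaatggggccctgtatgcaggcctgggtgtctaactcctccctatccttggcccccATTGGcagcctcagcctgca
Olig2, chr16:91225300-91225549: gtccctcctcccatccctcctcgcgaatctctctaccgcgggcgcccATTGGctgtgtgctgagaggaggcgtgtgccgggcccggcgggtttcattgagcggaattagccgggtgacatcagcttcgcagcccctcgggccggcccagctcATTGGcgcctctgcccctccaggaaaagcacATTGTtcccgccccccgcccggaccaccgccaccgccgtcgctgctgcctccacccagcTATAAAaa
Map2, chr1:66175079-66175201: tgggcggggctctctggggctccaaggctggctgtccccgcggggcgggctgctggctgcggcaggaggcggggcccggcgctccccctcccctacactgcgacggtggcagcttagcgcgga

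The 3 glial windows each held a CCAAT box on either strand, 1 in Fgfr3, 2 in S100b and 2 in Olig2. A CCAAT box was present in 33.8% of 32851 promoter windows of 250 bases. Fgfr3 and S100b each held 1 E-box, which 66.2% of windows held, and Olig2 held none. The SOX core was found once, in Olig2, at bases −67 to −63 before the gene start, and 27.7% of windows held it. A TATA box, held by 12.4% of windows, stood at bases −8 to −3 before the annotated start of Olig2. No motif searched overlapped another in these stretches. Guanine and cytosine made up 66.8% of the bases in Fgfr3, 53.6% in S100b, 66.8% in Olig2 and 77.2% in Map2, whose stretch of 123 bases held none of the 4 motifs. These are matches of letters and not sites shown to be bound, and a link between motif and direction was not tested.

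Among the astrocyte genes, Sparcl1 encodes hevin, a matrix protein secreted by astrocytes that promotes the formation of excitatory synapses. Its probe read 985 and 1042 on the berberine arrays, against 534 and 395 with AAPH alone. Both berberine arrays were higher, and the normalized log2 values averaged 10.53 ± 0.13 with berberine and 8.47 ± 0.07 with AAPH alone (SD, n = 2 each). Sparcl1 rose by log2 2.06 ± 0.13 (4.18-fold, adjusted p from limma = 0.000826). On the values as deposited the rise was 1.14 ± 0.26 and still passed (adjusted p from limma = 0.0394). The authors' sheet lists 1 of the 3 curated RefSeq transcripts of the gene for the probe. Such counts, given below as transcripts a probe carried, compare annotations and not probe sequences.

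Fgfr3, a receptor tyrosine kinase for fibroblast growth factors found on astrocytes and their precursors, read 1014 and 930 with berberine, against 561 and 453 with AAPH alone. The normalized log2 values of each pair were nearly the same, at 10.47 ± 0.0096 with berberine and 8.58 ± 0.0085 with AAPH alone (SD, n = 2 each). Fgfr3 rose by log2 1.89 ± 0.11 (adjusted p from limma = 0.000682). On the values as deposited the difference was 0.95 ± 0.24 and missed the threshold (adjusted p from limma = 0.0507). The probe carried 5 of the 7 curated transcripts.

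S100b, a calcium-binding protein of mature astrocytes that is also made by part of the oligodendrocyte lineage, read 2594 and 2429 with berberine, against 1498 and 1293 with AAPH alone. S100b rose by log2 1.80 ± 0.12 (adjusted p from limma = 0.000899). The deposited values gave 0.85 ± 0.22 without passing (adjusted p from limma = 0.0559). The sheet lists the only curated transcript for its probe. None of these 3 probes was at background in either group, which here means a detection p-value of 0.01 or more in the authors' deposited table.

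Of the oligodendrocyte genes, Pdgfra had the largest rise of the 10. It encodes the receptor for PDGF-A, the growth factor that keeps oligodendrocyte precursors dividing. The probe read 6747 and 5354 with berberine, against 1526 and 1272 with AAPH alone, and the mean intensity was 4.32 times as high. After normalization the log2 values were 12.69 ± 0.02 with berberine and 9.87 ± 0.03 with AAPH alone (SD, n = 2 each), a rise of log2 2.82 ± 0.11 (7.06-fold, adjusted p from limma = 0.00035). The rise was 2.11 ± 0.26 on the values as deposited (adjusted p from limma = 0.00857). The probe carried 2 of 4 curated transcripts.

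Mbp, the protein that compacts the myelin sheath, read 269 and 306 with berberine, against 173 and 149 with AAPH alone. The authors' deposited table gives detection p-values of 5.07e-05 with berberine and 0.000126 with AAPH alone, so it was above background in both. Mbp rose by log2 1.44 ± 0.12 (adjusted p from limma = 0.00141), and on the values as deposited the difference was 0.84 ± 0.23 (adjusted p from limma = 0.0627). Its probe carried 1 of 8 curated transcripts. The gene also yields golli transcripts outside myelinating cells, and the probe's signal was not assigned to a form here.

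Olig2, the basic helix-loop-helix factor that specifies oligodendrocyte precursors and motor neurons, read 2103 and 2007 with berberine, against 1788 and 1461 with AAPH alone. It had the smallest relative difference of the 10 in deposited intensity, where the mean with berberine was 1.27 times that with AAPH alone. Quantile normalization gave a rise of log2 1.35 ± 0.11 (adjusted p from limma = 0.00155), and the values as deposited gave 0.35 ± 0.23 (adjusted p from limma = 0.343). In the authors' deposited table the log2 ratio of Olig2 is 1.40, although the log2 ratio of the mean intensities in that table is 0.35. The ratio and the means of that table therefore stand on different scales.

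Sox9, an HMG-box factor needed for the maintenance of neural stem cells and for their switch to making glia, went the other way. Its probe read 13 and 36 with berberine, against 1091 and 897 with AAPH alone. With berberine it was at background (detection p-value of 0.915 in the authors' deposited table), so only a bound can be given. Against the lowest signal of sheet probes detected in the berberine group, Sox9 was at least 5.15-fold lower. The bound was not tested. The adjusted p from limma of 0.000189 is that of the fitted fold change, as it is beside each bound below. The normalized log2 values were 4.35 ± 0.14 with berberine and 9.42 ± 0.03 with AAPH alone (SD, n = 2 each). The fitted log2 fold change of −5.07 ± 0.13 depends on background signal and was −3.36 with a pseudocount of 50 and −5.52 on the values as deposited.

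The 3 neuronal genes did not move together. Nefl, the light subunit of the neurofilaments that set axon calibre, read 2574 and 1835 with berberine, against 961 and 809 with AAPH alone. The berberine arrays were further apart than the AAPH arrays, yet both lay above them. Nefl rose by log2 2.22 ± 0.14 (adjusted p from limma = 0.000818), and the rise passed on the values as deposited as well (1.30 ± 0.29, adjusted p from limma = 0.0354).

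Map2, which stabilises microtubules in dendrites, read 453 and 518 with berberine, against 11046 and 8854 with AAPH alone. It remained above background in both groups, with a detection p-value of 8.48e-07 with berberine in the authors' deposited table. Map2 fell by 3.79 ± 0.14 on the log2 scale (13.9-fold, adjusted p from limma = 0.000314), and fell by 4.35 ± 0.25 on the values as deposited (adjusted p from limma = 0.00158). Its probe carried 2 of 3 curated transcripts.

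Ncam1, an immunoglobulin-family adhesion molecule that bears polysialic acid on migrating neural cells, read 78 and 104 with berberine, against 4107 and 3296 with AAPH alone. It was at background with berberine (detection p-value of 0.115 in the authors' deposited table). Ncam1 was at least 20.3-fold lower (normalized log2 6.60 ± 0.07 with berberine and 11.40 ± 0.0044 with AAPH alone, SD, n = 2 each, adjusted p from limma = 0.000186). Its probe carried 2 of 4 curated transcripts. Of all 8519 named genes, 1418 (16.6%) were at background with berberine while detected with AAPH alone, as Ncam1 and Sox9 were.

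**Figure D2:**
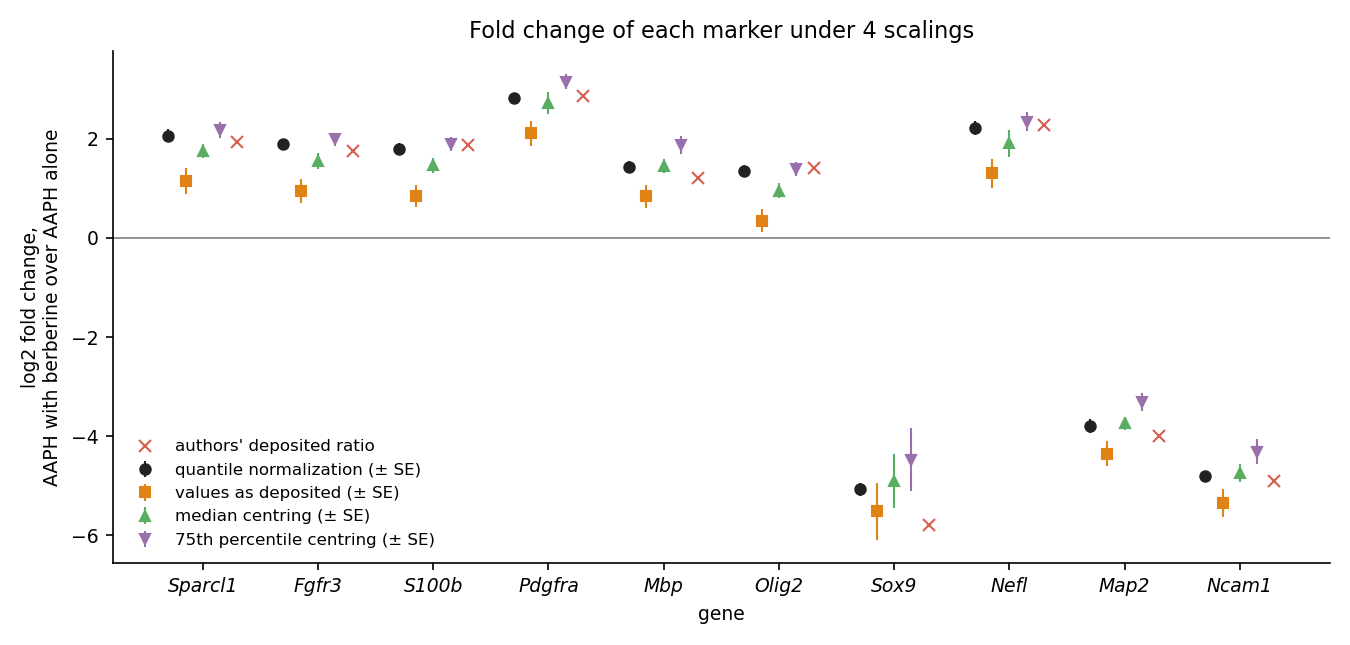
Log2 fold change (AAPH with berberine over AAPH alone) of each gene under 4 scalings of the 4 arrays, with the standard error of the limma fit as bars, beside the authors' deposited ratio without error. The sign is the same at every scaling, and the values as deposited give the smallest rises, down to 0.35 for Olig2.

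The direction of each of the 10 genes was the same under the 4 scalings. The 3 falls and the rises of Sparcl1, Pdgfra and Nefl passed at each scaling, and Fgfr3, S100b, Mbp and Olig2 passed at all but the values as deposited. In the authors' deposited table the log2 ratios of the 7 genes that rose ran from 1.22 for Mbp to 2.86 for Pdgfra. The same table gives −5.79 for Sox9, −3.98 for Map2 and −4.89 for Ncam1.

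Set among other genes named by the sheet, most of the rises were ordinary in size. Of the 4739 named genes that rose, the median rise was log2 1.72. Pdgfra rose more than 94.2% of them and Nefl more than 76.6%. Sparcl1 exceeded 69.4%, Fgfr3 59.9% and S100b 54.7%, whereas Mbp exceeded 28.4% and Olig2 21.1%. The 3754 named genes that fell had a median of −2.82, many of them at background with berberine. Among the 2331 that fell and were above background in both groups the median was −2.28, and the fall of Map2 was larger than 78.5% of those. The fitted falls of Sox9 and Ncam1 rest on background signal and have no rank.

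**Figure D3:**
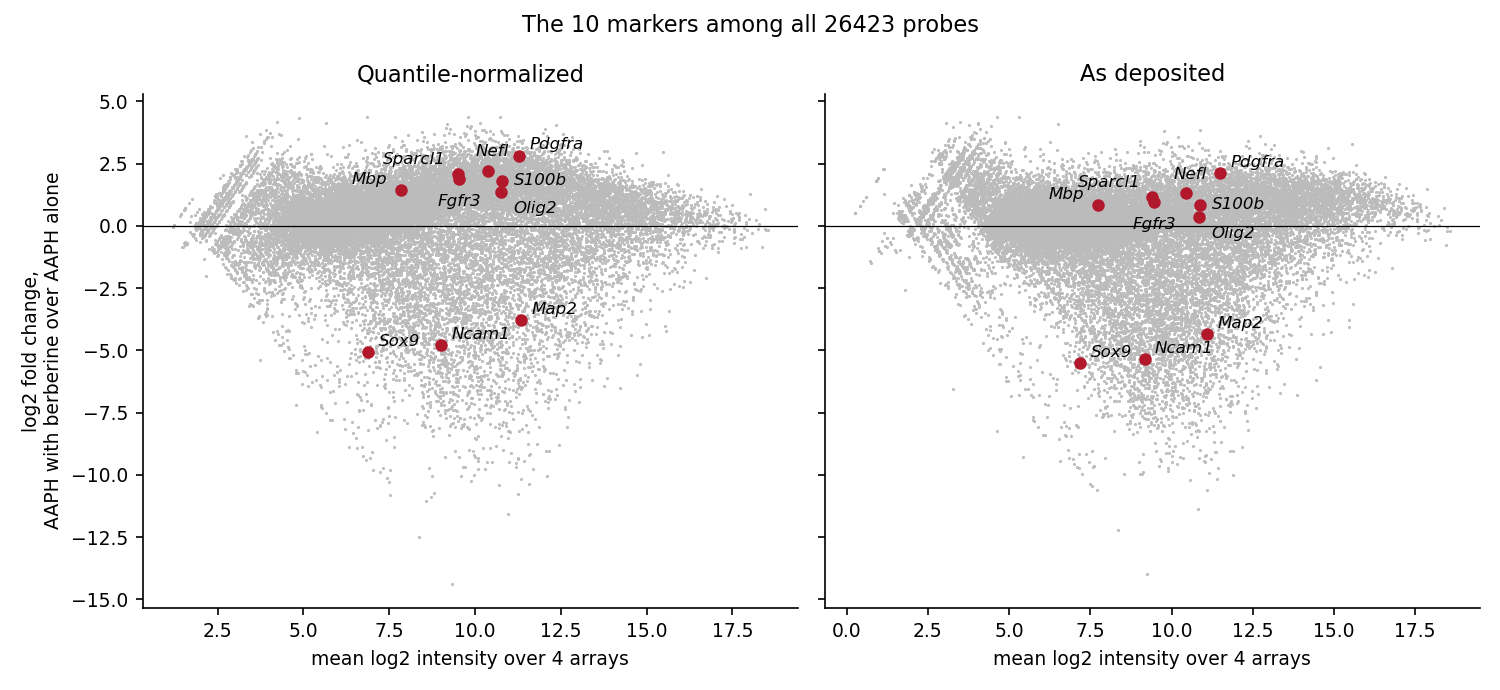
Log2 fold change (AAPH with berberine over AAPH alone) against mean log2 intensity over the 4 arrays for all 26423 probes (grey) and the 10 marker probes (red), after quantile normalization on the left and as deposited on the right. The 7 genes that rose lie inside the cloud of probes, which stands lower on the right, where Olig2 is at 0.35, and Map2, Ncam1 and Sox9 lie in its lower tail.

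Wider lists of textbook markers give the surroundings of these genes. A list member is called measured here only where the sheet names it. The sheet holds only probes the authors called changed, so an unchanged marker would not be counted. The lists were also chosen with earlier results of these data known, so their counts describe and test nothing. Where the sheet names several probes of a gene, the one with the highest mean signal stands for it. Over all 8519 named genes the median log2 fold change was 1.22, with 4739 higher and 3754 lower.

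Of 18 listed astrocyte markers 10 were measured, of which 8 rose and 2 fell, with a median of 1.63. The largest rise was that of Nfia, a nuclear factor that starts astrocyte formation, with 3538 and 2148 with berberine against 1010 and 850 with AAPH alone (log2 2.43 ± 0.18, adjusted p from limma = 0.00119). Its paralogue Nfib fell by 3.71 ± 0.19 on the log2 scale, with 316 and 276 with berberine against 7156 and 4958 with AAPH alone (adjusted p from limma = 0.000574). The other fall was that of Sox9. On the values as deposited 2 of the 10 rose, 2 fell and 6 did not pass. With centring on the median 7 of the 8 rises passed.

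Of 19 listed markers of the oligodendrocyte lineage 8 were measured, and each of these was higher with berberine (median log2 1.44). After Pdgfra the largest fitted rise was that of Cspg4, the NG2 proteoglycan of oligodendrocyte precursors. It read 277 and 436 with berberine and was at background with AAPH alone (235 and 98). Its bound depends on the scale, at 3.66-fold higher on the normalized values and 2.28-fold on the values as deposited. The adjusted p from limma for Cspg4 was 0.0266, and it was 0.184 on the values as deposited. Cspg4 also lost its call without AAPH array 2 (adjusted p from limma = 0.109), without berberine array 1 (0.0764) and without berberine array 2 (0.162), which left 7 of the list. The 8 kept their sign on the values as deposited, where 3 passed, and with centring on the median or the 75th percentile all 8 passed. In the authors' deposited table of biological processes, 22 of 34 genes of oligodendrocyte differentiation were among the called genes (q-value 0.331), as were all 7 of 7 genes of myelin assembly (q-value 0.552). For neuronal terms the same table counts 79 of 139 genes of neuron projection development (q-value 0.00691), 64 of 127 of neuron differentiation (q-value 0.439) and 52 of 107 of axonogenesis (q-value 0.807). No share called over all genes stands beside these counts in that table. The sheet of changed probes holds 9800 of the 26423 probes on the array, a share of probes and not of genes. It holds both rises and falls, and the counts do not separate them.

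Of 20 listed neuron markers 10 were measured, of which 6 rose and 4 fell, with a median of 1.25. Nefm, the medium neurofilament subunit that assembles with Nefl, had the largest rise. It read 30175 and 32159 with berberine, against 6500 and 5825 with AAPH alone (log2 2.36 ± 0.17, adjusted p from limma = 0.0011). The largest falls were those of Ncam1 and Map2. On the values as deposited 3 rose, 4 fell and 3 did not pass.

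The neural stem and progenitor list was lower on most of its measured members. Of 16 listed genes 7 were measured, all 7 above background with AAPH alone, and 5 fell and 2 rose, with a median of −2.66. Besides Sox9 the largest fitted fall was that of Hes1, a repressor downstream of Notch that keeps progenitors undifferentiated, which read 90 and 188 with berberine against 3162 and 2667 with AAPH alone. It was at background with berberine and at least 11.0-fold lower (adjusted p from limma = 0.00217). The smallest of the 5 falls, that of Id1 (log2 −1.28 ± 0.23), lost its call when either AAPH array was left out. The rises were those of Prom1 (log2 2.10 ± 0.12, adjusted p from limma = 0.000715), which encodes the surface antigen CD133, and Msi1 (1.14 ± 0.15, adjusted p from limma = 0.00503), an RNA-binding protein of progenitors. Msi1 did not pass on the values as deposited (adjusted p from limma = 0.634) or without AAPH array 2 (0.051). The stem cell genes Nes, Sox1 and Sox2, which would show the progenitor identity of the line most directly, have no named probe and were not analysed here.

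**Figure D4:**
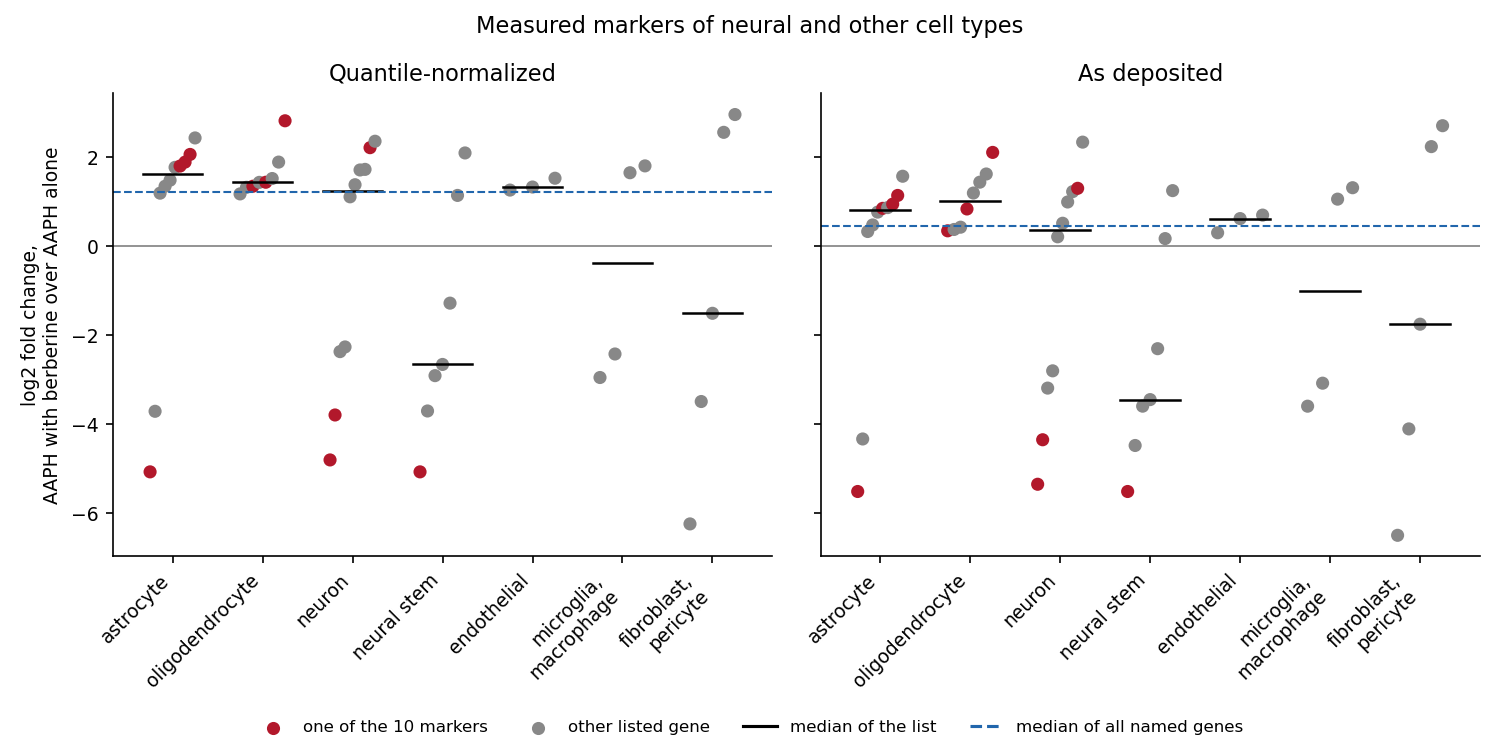
Log2 fold change (AAPH with berberine over AAPH alone) of each measured gene in 7 marker lists, after quantile normalization on the left and as deposited on the right, with the 10 markers in red, other listed genes in grey, the median of each list as a bar and that of all named genes as a dashed line (1.22 on the left, 0.45 on the right). All 8 oligodendrocyte genes lie above 0 in both panels, and 5 of 7 neural stem genes lie below it.

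Markers of cell types outside the neural lineages moved as well. The 3 measured of 9 endothelial markers rose, with a median of 1.33, led by Cldn5 (log2 1.53 ± 0.15, adjusted p from limma = 0.00205) and Esam (1.33 ± 0.13, adjusted p from limma = 0.00219). None of the 3 passed on the values as deposited. Of 9 microglia and macrophage markers 4 were measured, and P2ry12 rose by log2 1.81 ± 0.29 (adjusted p from limma = 0.00829) and Csf1r, at background with AAPH alone, was at least 1.94-fold higher on the normalized values and 1.47-fold on the values as deposited. In the same list Cd68 was lower with berberine by a factor of at least 4.86 and Tmem119 by at least 4.23 (adjusted p from limma = 0.000561 and 0.000699). P2ry12 did not pass on the values as deposited (adjusted p from limma = 0.0683), without AAPH array 1 (0.0783) or without AAPH array 2 (0.0645). The 5 measured of 9 fibroblast and pericyte markers divided too, with 2 higher, 3 lower and a median of −1.51. With centring on the median or the 75th percentile 2 of the 3 falls passed. Col1a1 rose by log2 2.96 ± 0.11 and Acta2 by 2.56 ± 0.12, whereas Col3a1 was at least 45.1-fold and Dcn at least 4.97-fold lower, with adjusted p-values from limma from 0.000189 for Col3a1 to 0.000659 for Dcn. Of 7 epithelial and muscle markers only Cdh1 was measured, and it rose by log2 1.45 ± 0.16 (adjusted p from limma = 0.00289).

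The summed deposited intensity of the measured fibroblast and pericyte genes was 74352 and 58914 with berberine, against 33501 and 26229 with AAPH alone. Most of it with berberine came from Acta2 (63944 and 51435 with berberine, against 9988 and 7697 with AAPH alone), while 3 of the 5 genes fell. That of the measured oligodendrocyte genes was 85629 and 69276 with berberine, against 30789 and 25050 with AAPH alone. Sox10 gave the largest share (40892 and 35984 with berberine, against 15718 and 12724 with AAPH alone), followed by the myelin glycoprotein gene Mog (33918 and 23702 with berberine, against 10167 and 8329 with AAPH alone). A sum therefore follows its brightest probes and not the list as a whole. Astrocyte genes summed to 19918 and 17862 with berberine, against 19638 and 15209 with AAPH alone, and the arrays overlapped. Neuron genes summed to 37600 and 38880 with berberine, against 29904 and 24720 with AAPH alone. Most of the neuron sum with berberine came from Nefm (30175 and 32159 with berberine, against 6500 and 5825 with AAPH alone), while 4 of the 10 genes fell. Without Nefm, the sum of the remaining neuron genes was lower with berberine than with AAPH alone. Neural stem genes went lower, with 4478 and 4713 with berberine against 22871 and 19855 with AAPH alone. Endothelial genes summed to 1606 and 1712 with berberine, against 1275 and 1134 with AAPH alone, and microglia and macrophage genes to 872 and 772 with berberine, against 2186 and 1880 with AAPH alone. No measured member of these lists was listed at 0 on any array. The part of other cell types in the changes of the glial and neuronal genes was not tested.

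Relatives and partners of the 10 genes moved in both directions. Among growth factor genes, 4 of 13 listed were measured, of which 2 rose and 2 fell. Fgfr1, a receptor related to Fgfr3, read 383 and 336 with berberine and was at background with AAPH alone (99 and 116), with a bound of 4.66-fold higher on the normalized values (adjusted p from limma = 0.00112) and 3.11-fold on the values as deposited. Pdgfa, which encodes a ligand of Pdgfra, rose by log2 1.52 ± 0.19 (adjusted p from limma = 0.00431). It just missed the threshold on the values as deposited (adjusted p from limma = 0.0507). The ligand gene Pdgfb fell by 4.19 ± 0.21 (adjusted p from limma = 0.00053) and its relative Pdgfc fell by 2.42 ± 0.16 (adjusted p from limma = 0.000872).

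Of 12 related transcription factor genes 7 were measured, of which 2 rose and 5 fell. Olig1, the neighbour and paralogue of Olig2, read 552 and 650 with berberine, against 501 and 425 with AAPH alone. It rose by log2 1.32 ± 0.15 (adjusted p from limma = 0.00348), and like Olig2 it did not pass on the values as deposited (0.38, adjusted p from limma = 0.317). Sox10, which drives myelin genes, rose by 1.18 ± 0.11 (adjusted p from limma = 0.00202). The inhibitor of differentiation Id4 was at background with berberine, at least 2.12-fold lower (adjusted p from limma = 0.000649), and Hes1 is given above.

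Of 13 genes of the cytoskeleton and cell adhesion 6 were measured, of which 4 rose and 2 fell. The adhesion molecule L1cam, which like Ncam1 belongs to the immunoglobulin family, read 12024 and 10413 with berberine, against 2104 and 1636 with AAPH alone (log2 3.15 ± 0.12, adjusted p from limma = 0.000311). The microtubule-associated gene Map1a rose by log2 2.59 ± 0.11 (adjusted p from limma = 0.000401). The axonal microtubule protein gene Mapt was at background with berberine and at least 2.41-fold lower (adjusted p from limma = 0.00126). Map6 fell by 2.09 ± 0.14 on its brightest probe (adjusted p from limma = 0.000896), but its other 2 named probes stood at 1.78 and −3.30, so its direction is uncertain. Among relatives of Sparcl1 and S100b, 2 of 11 were measured and both were lower. S100a13 fell by 3.99 ± 0.29 (adjusted p from limma = 0.00105), and Smoc2, a matrix protein of the SPARC family, was at background with berberine and at least 2.19-fold lower (adjusted p from limma = 0.00131).

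For each of the 10 genes the named gene with the most similar profile over the 4 arrays was sought, as the smallest root-mean-square difference of centred log2 values. Among the nearest profiles were those of the interleukin receptor gene Il4ra to S100b (0.0037) and Wdr5b to Fgfr3 (0.0047). Pdgfra was closest to Usp27x (0.0139), Mbp to Slc41a3 (0.0083), Olig2 to Peli1 (0.012) and Sparcl1 to A4gnt (0.02). For the neuronal genes these were Tmem80 for Nefl (0.0096), Wdyhv1 for Map2 (0.0168) and Dync1li2 for Ncam1 (0.0146), and for Sox9 March6 (0.0272). None of the 10 nearest genes is on a list used here. With 4 arrays a profile is little more than the fold change itself.

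The probes belong to different series by the prefix of their identifiers. Pdgfra and Ncam1 have mMC probes and the other 8 genes PH_mM probes. Of all 17660 PH_mM probes 41.5% were higher and 17.9% lower with berberine at an adjusted p of 0.05, and of 7590 mMC probes 38.1% were higher and 31.2% lower. The part of the probe series in the direction of the 10 genes was not tested.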

How the data were processed

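C17.2 RNA was measured on 4 single-colour arrays, 2 per group. Per the labels, the RNA was column-purified and amplified RNA carried Cy5. The deposited probe table holds linear intensities with no statement of how they were normalized. Per the file headers, the authors' deposited sheet lists called probes with the normalized intensity and detection p-value of each group, plus the log2 ratio between groups and a p-value for it, and a further sheet gives enrichment p- and q-values with gene numbers as other values of the authors. The sheet's G3 means differed from the means of the berberine arrays by a median of 0.662% and its G1 means from those of the AAPH arrays by 0.273%, so G3 was read as AAPH with berberine and G1 as AAPH alone. Columns of no sample numbered 0.

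Array medians differed, so values under 1 were set to 1 and quantile normalization was applied on the log2 scale. All 26423 probes entered 1 linear model with moderated variances (limma 3.58.1, R 4.3.3). Its p-values are two-sided and Benjamini-Hochberg adjusted, and 0.05 was the threshold. An exact permutation of 2 arrays against 2 cannot go below p = 0.333 and was not used. A probe with a detection p-value of 0.01 or more in a group was taken as at background there. Its bound sets the mean of the bright group against a value for each dim array, on the normalized log2 values. That value is the probe's own or the weakest signal of any sheet probe detected in that group, whichever is higher. Only probes in the sheet, which the authors called changed, entered this limit. The bound moves with the scaling and is no confidence limit. It was not tested, and an adjusted p beside it belongs to the fitted log2 fold change. After the data were seen it was also computed on the values as deposited. The fit was tested on simulated data, but without the floor or quantile normalization, so that test cannot speak to the choice of scaling. The number of arrays limits the precision. Named genes were the 10 members, the 2 largest rises and 2 largest falls of each list, and the nearest profile of each member. Nes, Sox1 and Sox2 are named outside that rule, as genes with no named probe in the sheet. Mog is named for its signal and Id1 for its lost call, both after their values were seen. The members, lists and tests were chosen with earlier results of these data known.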

Additional observations from a re-analysis of the deposited data

How the results depend on the processing

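Every alternative that was run kept the sign of the 10 genes: other scalings, a floor of 32, a pseudocount of 50, a filter on the dimmest 25% of probes, an intensity trend in eBayes, a replicate block and the loss of each array in turn. On the values as deposited 6 of the 10 probes passed, 3 of them higher, and Fgfr3 (log2 0.95), S100b (0.85), Mbp (0.84) and Olig2 (0.35) did not; of 73 further gene values and list counts 26 lost their call or shrank there. The authors' sheet heads its group means as normalized, and these lie close to the means of the deposited arrays. The deposited values thus stand on a scale that the sheet calls normalized, by a method not stated. Over all probes 8770 passed there, 3534 higher and 5236 lower, against 16578, 10635 and 5943 after quantile normalization, and with centring on the 75th percentile 12202 were higher and 3957 lower. With 1 array left out, where the lone array is assumed to vary like the others, the 10 genes passed with adjusted p-values from limma of at most 0.0282. The rises then ran from 1.28 to 1.40 for Olig2 and from 2.62 to 2.98 for Pdgfra, and probes called over the array numbered 11555 to 15508. The replicate numbers do not pair the arrays by the labels. Deviations of same-numbered arrays correlated at −0.0156 after quantile normalization and at 0.575 on the values as deposited. After quantile normalization the fit with the replicate block called 15558 probes and all 10 genes, with log2 2.06 for Sparcl1, while Cspg4 lost its call (adjusted p from limma = 0.0592). The values as deposited with the replicate block, an alternative chosen after seeing the data, gave 9796 probes called, 4365 of them higher. There 7 of the 10 genes passed, 4 of them higher, Fgfr3 among these (adjusted p from limma = 0.0467), and S100b (0.85), Mbp (0.84) and Olig2 (0.35) did not. The bounds of the probes lower with berberine were larger on the values as deposited, such as 8.26-fold for Sox9 and 30.7-fold for Ncam1, and those of probes higher with berberine were smaller.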
